A study of Canis lupus familiaris with 8 samples.

Results

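A set of 104 genes of MDCK I cells, an epithelial cell line from dog kidney, was lowered by both siRNA constructs against Nfat5 but differed little between isosmotic and hyperosmotic control cells. The count table held 32704 genes. Counts were divided by median-of-ratios size factors, and the log2 of each group mean plus 1 was taken. A gene was a member if any group mean reached 400, if Neg-siRNA (500 mOsm) lay within 0.35 of Neg-siRNA (300 mOsm) on this log2 scale, and if Nfat5-1-siRNA and Nfat5-2-siRNA were each lower than Neg-siRNA (500 mOsm) by at least 0.8. The level limit left 9951 genes, of which 3603 met the osmotic limits and 724 met the limits on both siRNAs. Of these 724 genes, 396 rose with osmolality by more than the limit, 224 fell by more than it, and the 104 members lay between. In the opposite direction, 576 genes were raised by both constructs by at least 0.8, of which 178 were within the osmotic limits. The osmotic comparison and both comparisons of Nfat5-siRNA with Neg-siRNA chose the members, so the members were chosen by the group means of all 8 libraries, and these values are a description of that choice.

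NFAT5 is a transcription factor of the Rel family, known for its response to tonicity. In the renal medulla, where the interstitium is hypertonic, it is known to raise the transcription of carriers and enzymes that accumulate compatible osmolytes, among them SLC6A6 (taurine), SLC6A12 (betaine), SLC5A3 (myo-inositol) and AKR1B1 (aldose reductase, which makes sorbitol). The factor is also present and active under isotonic conditions.

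The study asked which changes of the hyperosmotic transcriptome depend on Nfat5. RNA was sequenced in 8 libraries, 2 in each of 4 groups. All groups received 100 nM siRNA. Neg-siRNA, the control, was an siRNA against Slc22a6, chosen because MDCK I cells do not express that gene, and it was given at 300 mOsm in one group, below called the isosmotic control, and at 500 mOsm in another, the hyperosmotic control. The groups Nfat5-1-siRNA (500 mOsm) and Nfat5-2-siRNA (500 mOsm) received different constructs against Nfat5. In the groups at 500 mOsm, raffinose added 200 mOsm for the last 24 h before RNA isolation, and no group had an Nfat5 construct at 300 mOsm. In each group, replicate 1 was grown from passage 15 and replicate 2 from passage 17 of the line. Without passage in the model, the p-values therefore measure the spread between passages of a single cell line. With passage in the model, they measure the spread left after it. Library totals were 44515340 and 34564103 counts in the isosmotic control, 41742578 and 43971253 in the hyperosmotic control, 46043788 and 45111348 with Nfat5-1-siRNA, and 37488252 and 39036966 with Nfat5-2-siRNA.

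The genes are given by their CanFam3.1 position, since 860 identifiers of the table could be paired with a gene symbol and 0 of the 104 members were among them. What each member encodes is therefore not stated. Of 59 marker genes for kidney epithelium and for other cell types, 3 could be paired, so the cell identity was not checked against markers. In these bulk libraries, fewer cells of one type and less RNA per cell cannot be told apart.

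The members together took 1.96% and 1.92% of all counts in replicates 1 and 2 of the isosmotic control. They took 1.86% and 1.94% in the hyperosmotic control, 0.960% and 0.860% in Nfat5-1-siRNA, and 0.867% and 0.871% in Nfat5-2-siRNA. The 4 Nfat5-siRNA libraries thus lay below the 4 Neg-siRNA libraries in this share. The rule set limits on the group means of these same libraries, so nothing is read from this separation. Expression is given below in CPM, the count scaled by the TMM-adjusted library size. The median member was at 47.9 and 51.3 CPM in the isosmotic control, at 50.5 and 51.8 CPM in the hyperosmotic control, at 26.0 and 24.1 CPM in Nfat5-1-siRNA and at 22.0 and 21.2 CPM in Nfat5-2-siRNA. The mean of Neg-siRNA (500 mOsm) ranged from 10.3 to 2701 CPM over the members. The 37 genes of the mitochondrial genome took 5.67% and 6.52% of counts in the isosmotic control, 4.39% and 5.87% in the hyperosmotic control, 4.34% and 4.44% in Nfat5-1-siRNA, and 4.36% and 4.65% in Nfat5-2-siRNA. The mitochondrial share moved with the groups in part, and its part in the members' differences was not tested.

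**Figure D1:**
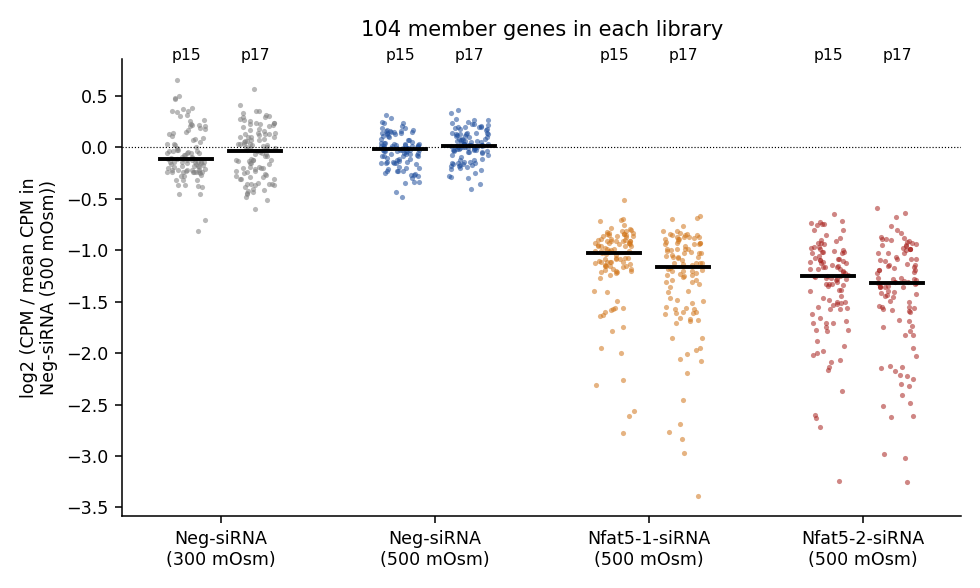
Each point is 1 of the 104 members in 1 of the 8 libraries, plotted as the log2 of its CPM over its mean CPM in the hyperosmotic control, with p15 and p17 for the cell passages and black bars for the medians. The medians of the Neg-siRNA libraries lie between −0.11 and 0.02, and those of the Nfat5-siRNA libraries between −1.32 and −1.02.

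Between the control groups, the members differed by a median log2 fold change of 0.07, from −0.32 to 0.37, with 67 members higher and 37 lower at 500 mOsm. edgeR's quasi-likelihood test with the Benjamini-Yekutieli adjustment called 0 of 104 members, compared with 20.6% of the 19835 genes tested and 33.1% of genes past the level limit. The unadjusted p-value was under 0.05 for 4 members, against 43.8% of all genes, and DESeq2 also called 0 members, against 24.5% of all genes and 39.6% of genes past the level limit. With passage in the model edgeR called 0 as well, against 33.1% of all genes and 52.2% of genes past the level limit. With passage in the model and the Benjamini-Hochberg adjustment in place of the stricter one, 5 members were called, all higher at 500 mOsm, against 43.4% of all genes and 64.7% of genes past the level limit. The rule kept only genes with a small osmotic difference in these libraries, so nothing is read from these counts.

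With Nfat5-1-siRNA, the median log2 fold change of the members against Neg-siRNA (500 mOsm) was −1.07, and that of all genes tested was −0.07. With Nfat5-2-siRNA, the medians were −1.27 and −0.03. Without passage in the model, 80 members were called lower with Nfat5-1-siRNA (4.53% of all genes and 7.85% of genes past the level limit) and 94 with Nfat5-2-siRNA (7.38% and 13.5%). With passage in the model all 104 were called lower with each construct, against 11.9% and 15.3% of all genes and 19.6% and 27.2% of genes past the level limit. The rule asked for these falls, so nothing is read from the counts. When a replicate of either compared group was left out, fewer members and a smaller share of all genes were called lower. This held for both constructs and for every such replicate. The ranges are given below, with the dependence on the processing.

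The mean of the log2 fold changes over both constructs had a median of −1.18 among the members and quartiles of −1.47 and −1.02. It passed −1 in 79 members and −2 in 7. The rule bounds the falls at every level, so the medians by level are a description. In the 35 members of lowest expression, from 10.3 to 33.5 CPM in the hyperosmotic control, the median fall was −1.20, in the middle 34 it was −1.13, and in the 35 of highest expression, from 95.5 to 2701 CPM, it was −1.19. The 5 members just inside the limit had, for the construct with the smaller fall, a difference between −0.81 and −0.80, and the 5 genes just outside it had one between −0.80 and −0.78.

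**Figure D2:**
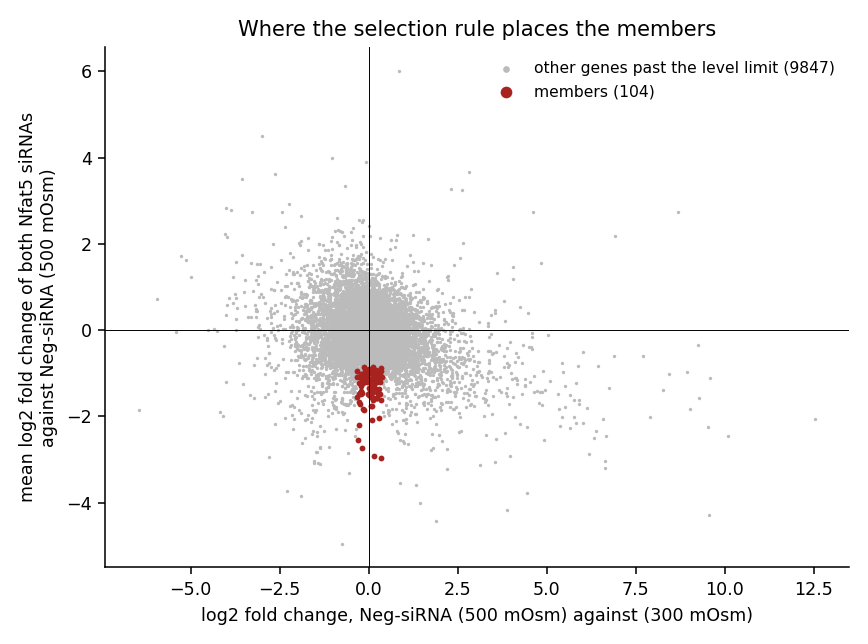
Each point is 1 of the 9951 genes past the level limit, with the log2 fold change between the control groups on the x axis and the mean log2 fold change of both Nfat5 constructs against Neg-siRNA (500 mOsm) on the y axis. The 104 members fill a narrow column around 0 on the x axis and reach from −2.97 upwards on the y axis, as the rule sets.

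The largest mean fall was that of ENSCAFG00000018719, at chr9:42778081-42782604 on the minus strand. It was measured at 322 and 263 CPM in the isosmotic control, at 379 and 370 CPM in the hyperosmotic control, at 63.4 and 52.5 CPM in Nfat5-1-siRNA and at 39.6 and 39.3 CPM in Nfat5-2-siRNA. The lowest control library lay far above the highest library with an Nfat5 construct. Its log2 fold changes were −2.69 (SE 0.16) and −3.25 (SE 0.17) with the constructs. The next was ENSCAFG00000032469, at chr4:22917001-22919498, with 263 and 265 CPM in the isosmotic control, 324 and 257 CPM in the hyperosmotic control, 42.4 and 27.8 CPM in Nfat5-1-siRNA, and 47.7 and 35.8 CPM in Nfat5-2-siRNA. Here the log2 fold changes were −3.05 (SE 0.22) and −2.80 (SE 0.22) in the same order, and the libraries of both constructs overlapped each other.

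The gene at chr28:40038592-40049595 was lowered from a high level. It had 591 and 622 CPM in the isosmotic control, 427 and 558 CPM in the hyperosmotic control, 99.3 and 76.5 CPM in Nfat5-1-siRNA, and 74.7 and 88.1 CPM in Nfat5-2-siRNA. The 4 values with a construct lay far below the 4 control values, and the groups of both constructs overlapped. The gene at chr8:68483828-68492216 lay lower, with 27.5 and 21.0 CPM in the isosmotic control, 21.4 and 21.6 CPM in the hyperosmotic control, and between 2.72 and 3.52 CPM in the 4 libraries with a construct. Its log2 fold changes were −2.69 (SE 0.22) and −2.79 (SE 0.22). The other genes with a mean fall past −2 lie at chr34:22036372-22185026, chr33:25525531-25552074 and chr24:23928670-23972633. The last fell from 443 and 363 CPM in the hyperosmotic control to 135 and 100 CPM in Nfat5-1-siRNA and to 101 and 65.4 CPM in Nfat5-2-siRNA. Ranks 8 to 12 had mean falls between −1.84 and −1.72, and they lie on chromosomes 2, 26, 33, X and 9.

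**Figure D3:**
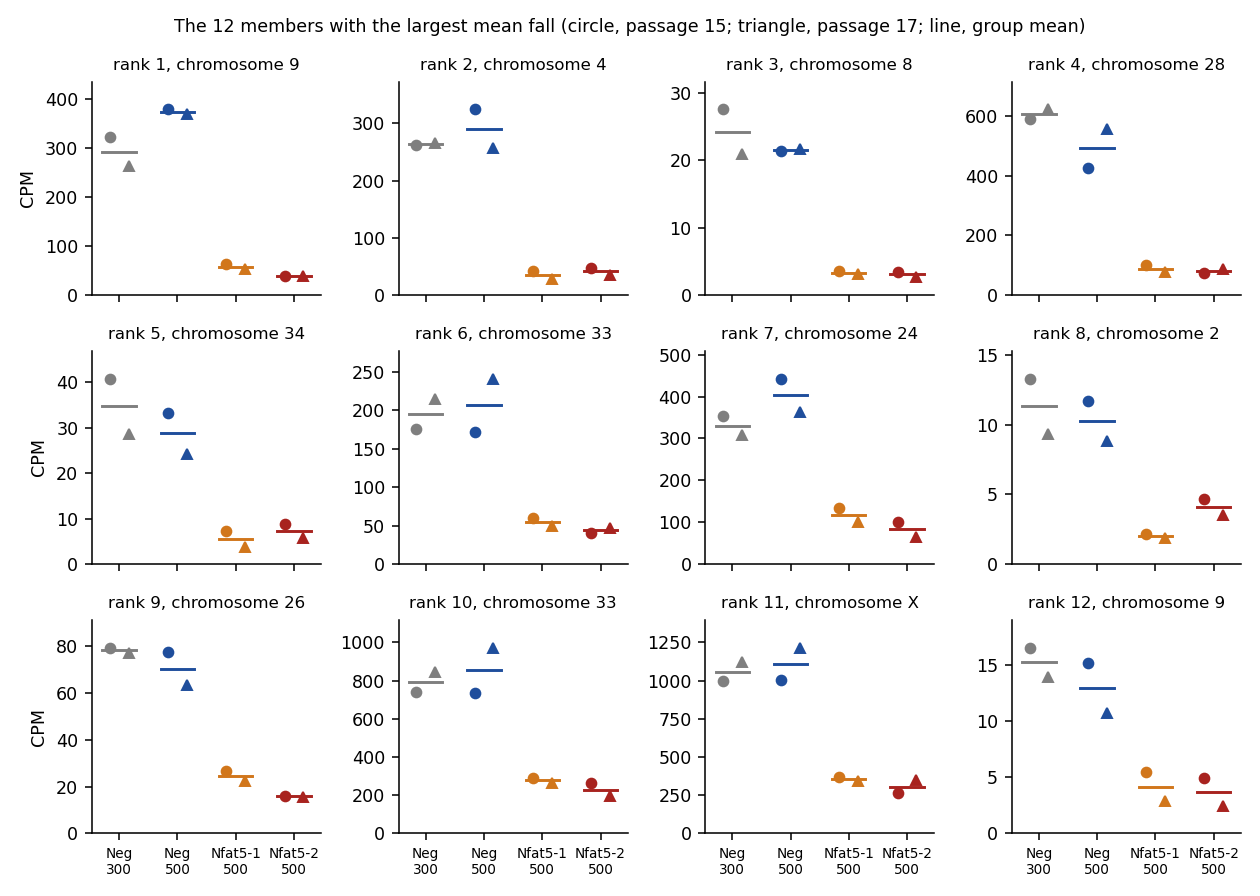
CPM on linear axes from 0 in each of the 8 libraries for the 12 members with the largest mean fall over both constructs, with circles for passage 15, triangles for passage 17 and lines for the group means. In each of the 12 panels the 4 libraries with an Nfat5 construct lie below the 4 Neg-siRNA libraries, as the rule on the group means favours.

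In 103 of the 104 members the 4 Nfat5-siRNA libraries lay below all 4 Neg-siRNA libraries, as they did in 12.3% of all genes tested and in 18.2% of genes past the level limit. The rule chose the members by the group means of these libraries, so nothing is read from this count. The exception, named after its values were seen, was the gene at chr21:41340414-41357869. It had 56.0 and 38.2 CPM in the isosmotic control, 70.6 and 45.2 CPM in the hyperosmotic control, 40.7 and 23.7 CPM in Nfat5-1-siRNA, and 21.3 and 10.2 CPM in Nfat5-2-siRNA. Within each passage the order of its groups was the same, and passage 17 was the lower in every group.

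Per kilobase of exon, the member of highest expression in Neg-siRNA (500 mOsm) was the gene at chr5:62301164-62312161, at 1056 RPKM (CPM per kilobase of summed exons). It was measured at 1606 and 1734 CPM in the isosmotic control, at 1704 and 1683 CPM in the hyperosmotic control, at 781 and 613 CPM in Nfat5-1-siRNA, and at 597 and 679 CPM in Nfat5-2-siRNA. The control groups overlapped, and so did the groups with a construct. The genes at chrX:60374855-60395801, chr1:117922651-117948402, chr6:18071020-18084389 and chr13:58712857-58752217 followed, with 886, 709, 621 and 590 RPKM. The gene on chromosome 6 had the largest CPM of the set, at 2782 and 2620 CPM in the hyperosmotic control, and it fell to 1164 and 907 CPM in Nfat5-1-siRNA and to 954 and 1093 CPM in Nfat5-2-siRNA. With a log2 fold change of −1.28 to −1.65 with Nfat5-1-siRNA, 4 of these 5 genes fell by more than the median member, and the gene on chromosome 13 fell by 1.03 on the log2 scale.

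To read the pattern in libraries that did not choose the genes, the rule was applied to 1 passage and the differences were read in the other. In passage 15 alone, 90 genes met it, 64 of them members. Read in passage 17, their median log2 difference from Neg-siRNA (500 mOsm) was −1.26 with Nfat5-1-siRNA and −1.29 with Nfat5-2-siRNA, whereas all genes past the level limit there had medians of 0.03 and −0.02. Both constructs passed the limit on the fall for 70 of the 90 genes (77.8%), compared with 8.91% of all genes past the level limit, and all 90 were lower with both (100%, against 42.8% of all). The osmotic difference was within its limits for 59 of the 90 (65.6%, against 36.3% of all).

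In the opposite direction, 141 genes met the rule in passage 17, 84 of them members, and they were read in passage 15. Their medians were −0.90 with Nfat5-1-siRNA and −1.03 with Nfat5-2-siRNA, against −0.02 and −0.11 for all genes. Both falls passed the limit for 71 genes (50.4%, against 6.01% of all), and 140 of the 141 were lower with both constructs (99.3%, against 44.9% of all). The osmotic limits held for 96 (68.1%, against 35.1% of all). The whole rule was met in both passages by 47 genes, which are 52.2% of those chosen in passage 15 and 33.3% of those chosen in passage 17. Of all genes past the level limit, 1.41% met the whole rule in passage 17 and 0.904% in passage 15. All 3 differences of a passage share 1 Neg-siRNA (500 mOsm) library, so they are not independent of each other.

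**Figure D4:**
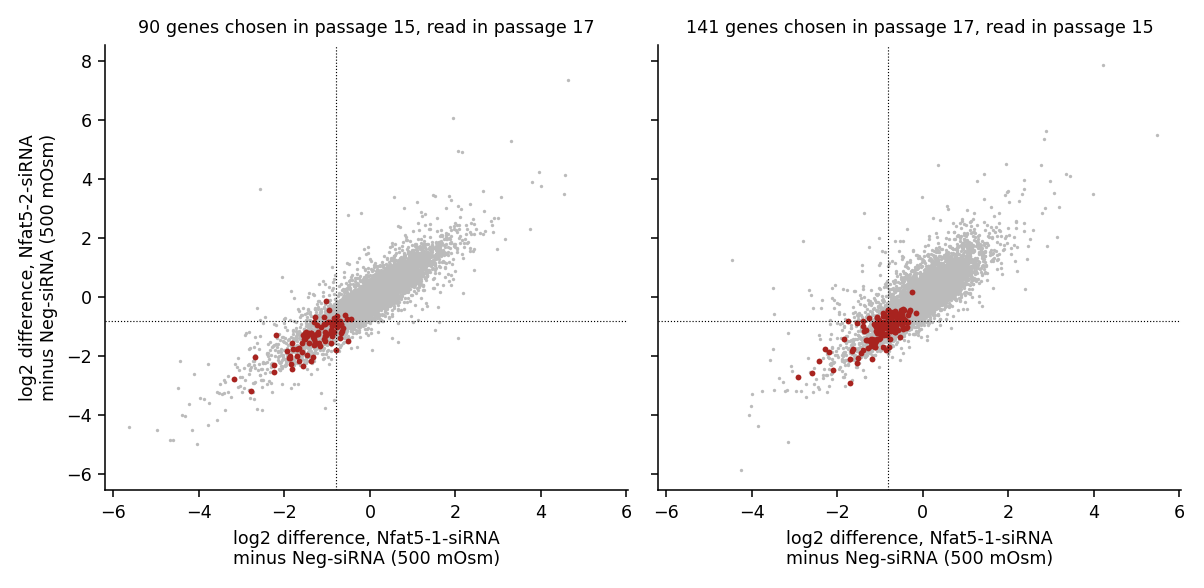
Each point is a gene, with the log2 difference of Nfat5-1-siRNA from Neg-siRNA (500 mOsm) on the x axis and that of Nfat5-2-siRNA on the y axis, in the passage that did not choose the genes (red, chosen in the other passage; grey, other genes past the level limit; dotted lines, the limit of −0.8). Of the red genes, 70 of 90 in the left panel and 71 of 141 in the right panel lie in the lower left corner beyond both limits.

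Between the constructs, no limit of the rule applied, although both groups entered it against Neg-siRNA (500 mOsm). Most members were lower with Nfat5-2-siRNA than with Nfat5-1-siRNA, with a median log2 fold change of −0.18 and 82 of 104 members (78.8%) lower. Of all genes past the level limit, 63.7% were lower, with a median of −0.10. The members thus differed in the direction in which most expressed genes did. Without passage in the model, edgeR with the Benjamini-Yekutieli adjustment called 0 members (0.0403% of all genes and 0.0804% of genes past the level limit). The unadjusted p-value was under 0.05 for 25 members, against 14.9% of all genes. DESeq2 called 1 (0.948% of all genes and 1.66% of genes past the level limit), and edgeR with no filter on low counts called 3 (1.46% and 2.69%). With the Benjamini-Hochberg adjustment edgeR also called 1 (0.938% of all genes and 1.63% of genes past the level limit). With passage in the model, 11 members (10.6%) were called, 8 of them lower with Nfat5-2-siRNA and 3 higher, which is near the share of genes past the level limit (8.49%, and 4.94% of all genes).

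Among the members, edgeR's adjusted p-value between the constructs without passage in the model was smallest at chr22:15572575-16079207. This gene had 46.9 and 46.9 CPM in Nfat5-1-siRNA and 24.2 and 23.5 CPM in Nfat5-2-siRNA, after 108 and 83.4 CPM in the hyperosmotic control. The replicates of each construct were almost identical, and the constructs differed by −0.98 on the log2 scale (SE 0.14, adjusted p = 1.84e-07 by edgeR with passage in the model, 0.0997 without). The gene at chr21:41340414-41357869 differed by −1.06 (SE 0.15, adjusted p = 1.47e-07 by edgeR with passage, 1 without). The gene at chr20:8236123-8295469 had 33.6 and 25.0 CPM in Nfat5-1-siRNA and 19.3 and 15.4 CPM in Nfat5-2-siRNA, which differed by −0.75 (SE 0.14, adjusted p = 0.000338 by edgeR with passage). The libraries of the constructs did not overlap in this gene, and it was lower with Nfat5-2-siRNA in both passages. The gene at chr17:57665823-57698883, at 7.30 and 4.55 CPM in Nfat5-1-siRNA and 3.74 and 2.61 CPM in Nfat5-2-siRNA, differed by −0.89 (SE 0.22, adjusted p = 0.0271 by edgeR with passage).

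The gene at chr2:84141911-84150803 went the other way, with 2.15 and 1.87 CPM in Nfat5-1-siRNA and 4.66 and 3.51 CPM in Nfat5-2-siRNA, after 11.7 and 8.86 CPM in the hyperosmotic control. Its log2 fold change between the constructs was 1.01 (SE 0.24, adjusted p = 0.0151 by edgeR with passage). The other members called higher with Nfat5-2-siRNA, named after their values were seen, lie at chr13:59961184-59971665 and chr20:52942076-52949053, with log2 fold changes of 0.73 (SE 0.19) and 0.58 (SE 0.14) in the fit with passage. The largest mean fall of the set, on chromosome 9, was also among the 11, with −0.55 (SE 0.13, adjusted p = 0.0169 by edgeR with passage).

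Between passage 17 and passage 15, which the rule did not compare, the members showed no common direction, with 56 lower and 48 higher in passage 17 and a median log2 fold change of −0.01. The median absolute difference was 0.15, against 0.13 for all genes past the level limit. edgeR with the Benjamini-Yekutieli adjustment called 11 members (10.6%), 8 lower and 3 higher in passage 17, compared with 3.29% of all genes and 5.83% of genes past the level limit. Of these 11 members, 2 were also called between the constructs. The count between passages was 2 with edgeR's filterByExpr (0.656% of all genes and 0.945% of genes past the level limit) and 18 with the Benjamini-Hochberg adjustment (7.92% and 13.7%).

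The largest difference between passages was at chr12:15161108-15189507. This gene had 109 CPM in passage 15 and 57.3 CPM in passage 17 of the isosmotic control, 81.8 and 55.9 CPM in the hyperosmotic control, 37.1 and 28.2 CPM in Nfat5-1-siRNA, and 41.5 and 11.3 CPM in Nfat5-2-siRNA. Passage 17 was lower in all 4 groups, and the difference was −0.92 on the log2 scale (SE 0.11, adjusted p = 2.2e-09 by edgeR). Without passage in the model, this gene was called lower with neither construct. The gene at chr12:815483-816632 had the opposite difference of 0.73 (SE 0.12, adjusted p = 7.5e-05 by edgeR). It was measured at 14.3 and 25.4 CPM in the isosmotic control, 20.6 and 29.4 CPM in the hyperosmotic control, 6.47 and 11 CPM in Nfat5-1-siRNA, and 5.57 and 9.74 CPM in Nfat5-2-siRNA. It was higher in passage 17 in all 4 groups.

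**Figure D5:**
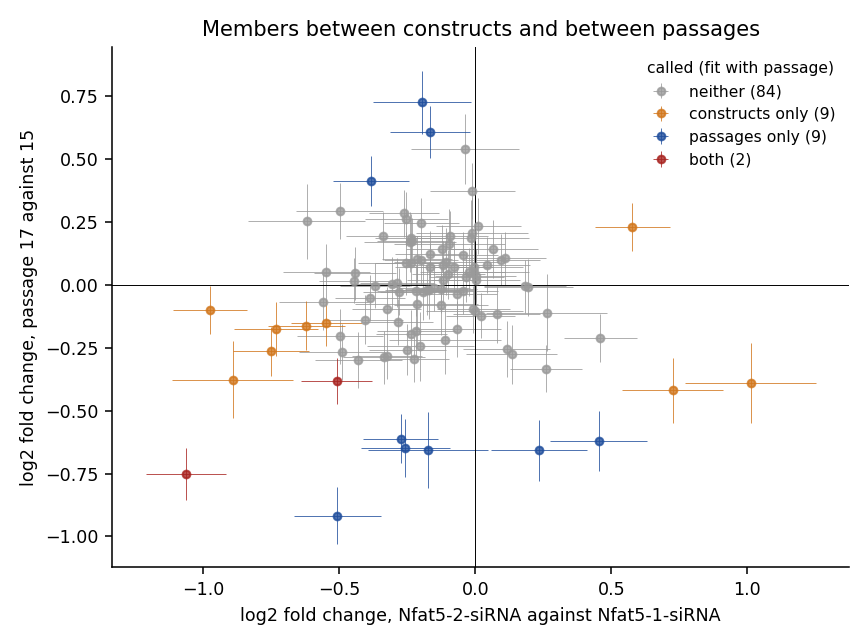
Each point is 1 of the 104 members, with the log2 fold change of Nfat5-2-siRNA against Nfat5-1-siRNA on the x axis and that of passage 17 against passage 15 on the y axis, from the fit with group and passage, and with standard errors as bars. Colours mark the 11 members called between constructs and the 11 called between passages, 2 of which are the same genes.

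The members were spread over 35 chromosomes. Chromosome 5 held 8, and chromosomes 10, 33 and X held 6 each. On chromosome 33 these were 6 of 113 genes past the level limit (5.31%), and on chromosome 36 there were 3 of 76 (3.95%), compared with 1.05% over all genes past the level limit. The share was 2.52% on chromosome 21, 2.13% on chromosome 13, 2.07% on X, 1.80% on chromosome 30 and 1.58% on each of chromosomes 5 and 10. Among the chromosomes with a member, the lowest share was 0.382%, on chromosome 11. Their median exonic length was 2182 bases and their median number of exon blocks was 9, against 2507 bases and 10 blocks for all genes past the level limit. A single exon block was present in 3 members (2.88%, against 4.35% of genes past the level limit), at chr15:16893224-16894369, chr2:77212092-77212523 and chrX:76432632-76432985. Exons of 8 members overlapped those of another gene (7.69%, against 11.4%). Counting ignored strand, so reads of overlapping genes on opposite strands cannot be told apart. The largest overlap as a share of the member's exons was 56.5%, at chr15:16893224-16894369.

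On chromosome 33, 4 members lay in a stretch of 1114 kb, chosen after the positions were seen. They are the genes at chr33:25113341-25147158, chr33:25207473-25238258, chr33:25525531-25552074 and chr33:26131910-26227557, with mean falls from −2.08 to −1.08. The stretch held 25 genes of the table, 13 of them past the level limit. A further gene there, at chr33:25256136-25319526, had larger falls of −3.36 and −3.73 but a log2 fold change of 0.87 between the control groups, which put it outside the osmotic limits. Between these lay PARP9, DTX3L and PARP14, which encode interferon-inducible ADP-ribosyltransferases and a ubiquitin ligase partner, and all 3 fell between the control groups and rose with both constructs. The log2 fold changes of PARP9 were −2.22 between the control groups and 1.27 and 1.50 with the constructs, with adjusted p-values of 0.0075 and 0.0016 for the constructs by edgeR. Those of DTX3L were −2.14, 1.14 and 1.48, with adjusted p-values of 0.0067 and 0.00076 for the constructs by edgeR. PARP14 had 36.1 and 40.6 CPM in the isosmotic control, 4.61 and 4.18 CPM in the hyperosmotic control, 10.6 and 11.1 CPM in Nfat5-1-siRNA, and 17.2 and 12.3 CPM in Nfat5-2-siRNA. Its log2 fold changes were −3.12 between the control groups and 1.30 and 1.75 with the constructs, the latter with adjusted p-values of 0.0072 and 0.00061 by edgeR. Members and genes with the opposite response to the constructs thus lay within the same stretch, with genes of smaller change between them. The symbols of these 3 genes come from a list that the study chose on these samples, so their changes are not independent evidence. The paper describes that list as genes that hyperosmolality raised and both constructs lowered, which these 3 were not in the counts used here.

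Directly beside 7 members lay a gene with a symbol. The symbols come from a list that the study chose on these samples, so the neighbours' changes are not independent evidence. The paper describes the list as genes that hyperosmolality raised and both Nfat5 siRNAs lowered. In the counts used here, FXYD6, KANK3 and ATXN1 changed in this way, but SPAG5, KNL1, HMOX1 and UTP3 did not. The reason for this mismatch was not tested. In RefSeq's dog annotation (UU_Cfam_GSD_1.0), another build than that of the counts, the protein-coding genes next to a named gene can be read, but no identifier ties them to a member. The member of largest fall, on chromosome 9, lies 0.755 kb from SPAG5, a mitotic spindle protein, and SPAG5 has ALDOC and RSKR as its RefSeq neighbours. SPAG5 had 91.1 and 95.0 CPM in the isosmotic control, 38.3 and 31.8 CPM in the hyperosmotic control, 5.69 and 3.28 CPM in Nfat5-1-siRNA, and 4.81 and 2.89 CPM in Nfat5-2-siRNA. It fell with both constructs like the member beside it, but it also fell between the control groups, by 1.41 on the log2 scale.

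The member at chr10:28721262-28738887 lies 4.87 kb from HMOX1, which encodes the haem-degrading enzyme haem oxygenase and has MCM5 and TOM1 as RefSeq neighbours. The member was measured at 181 and 166 CPM in the isosmotic control, 205 and 155 CPM in the hyperosmotic control, 89.4 and 46.5 CPM in Nfat5-1-siRNA, and 74.9 and 37.7 CPM in Nfat5-2-siRNA. HMOX1 moved in the opposite direction with the constructs, from 52.8 and 53.1 CPM in the hyperosmotic control to 290 and 284 CPM in Nfat5-1-siRNA and 169 and 159 CPM in Nfat5-2-siRNA, after 8.97 and 7.75 CPM in the isosmotic control. The member at chr30:7842540-7877113 lies 13.6 kb from KNL1, a kinetochore scaffold. It went from 33.4 and 28.5 CPM in the hyperosmotic control to 14.4 and 12.5 CPM in Nfat5-1-siRNA and 9.47 and 8.74 CPM in Nfat5-2-siRNA, with 45.7% of its exonic bases shared with a gene on the other strand. KNL1 went from 40.6 and 32.2 CPM to 15.9 and 12.7 CPM and to 9.47 and 9.50 CPM in the same groups, after 89.0 and 91.9 CPM in the isosmotic control.

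The member at chr20:52942076-52949053 lies 29.2 kb from KANK3, an ankyrin repeat protein of the cytoskeleton, which has RPS28 and ANGPTL4 as RefSeq neighbours. KANK3 was almost absent at 300 mOsm, with 1.66 and 2.04 CPM, rose to 25.0 and 29.3 CPM in the hyperosmotic control and was at 1.34 to 1.75 CPM in the 4 libraries with a construct. The member had 87.2 and 77.7 CPM in the isosmotic control, 88.8 and 109 CPM in the hyperosmotic control, 29.5 and 43.2 CPM in Nfat5-1-siRNA, and 49.2 and 58.5 CPM in Nfat5-2-siRNA. Both genes fell with the constructs, and the osmotic rise was that of KANK3. The other members with a named neighbour lie beside FXYD6, a regulator of the sodium pump, beside UTP3, a protein of ribosome assembly, and beside ATXN1, a repressor of transcription. FXYD6 and ATXN1 rose between the control groups and fell with both constructs, and UTP3 did the reverse. Of the 7 neighbours, 5 fell with both constructs and 2 rose. The list that names them was chosen on these samples, so nothing is read from this count.

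NFAT5 itself could not be paired with an identifier of the table. The gene next to NQO1 at chr5:80003598-80115099 had 21.8 and 23.6 CPM in the isosmotic control, 85.9 and 78.5 CPM in the hyperosmotic control, 104 and 88.1 CPM in Nfat5-1-siRNA, and 72.2 and 73.5 CPM in Nfat5-2-siRNA. The RefSeq neighbours of NQO1 are NOB1 and NFAT5, but no identifier ties either to this gene, so it is not named here and is no check of the knockdown. AKR1B1, a known NFAT5 target, is given for comparison. It had 18.0 and 22.6 CPM in the isosmotic control, 1116 and 1186 CPM in the hyperosmotic control, 320 and 178 CPM in Nfat5-1-siRNA, and 276 and 259 CPM in Nfat5-2-siRNA. It rose between the control groups by a log2 fold change of 5.82 and fell by 2.21 with Nfat5-1-siRNA and by 2.10 with Nfat5-2-siRNA, whereas the members lay within the osmotic limits by the rule. SLC6A6, SLC6A12, SLC5A3 and TMEM184B, also given for comparison, rose between the control groups too and fell less than AKR1B1. KANK3 and FXYD6, named above, rose as well and fell by more than AKR1B1. In the same order of constructs, the log2 fold changes were −1.29 and −1.47 for SLC6A6 and −1.74 and −1.92 for SLC6A12. They were −1.46 and −1.97 for SLC5A3, which was not called with Nfat5-1-siRNA without passage, and −1.22 and −1.19 for TMEM184B.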

How the data were processed

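Reads of the 8 libraries were mapped by the authors with HISAT2 2.0.5 to CanFam3.1 and counted on Ensembl 92 exons with featureCounts 1.5.1, without regard to strand. They deposited raw read counts per gene with the summed exon length. The counting command had no option for fragments, so mates seem to have been counted separately, and counts exceed fragments. The TMM factors ranged from 0.883 to 1.12, and precision is limited by 2 replicates per group.

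Genes whose counts summed to 5 or more were tested with edgeR 4.0.16 (R 4.3.3), using TMM, the quasi-likelihood test on 4 groups and the Benjamini-Yekutieli adjustment (threshold 0.05, two-sided). The standard error was taken from the F statistic. Fold changes are those of the fit without passage, except beside an SE or adjusted p named as from the fit with passage. Passage 17 against passage 15 was tested in the fit with passage as a block. The labels give the passage of each replicate number, and differences between the replicates correlated between groups across 12424 genes with r from 0.129 to 0.479 over 6 pairs of groups, so the numbers pair the samples. The fits were tested on simulated data for Nfat5-1-siRNA against Neg-siRNA (500 mOsm), with 200 genes changed 2-fold and a dispersion of 0.02. In the real data, the common dispersion was 0.032 without the block and 0.0168 with it. In a simulated set without passage changes, edgeR without the block recovered 157 of the changed genes (78.5%) among 19831 tested. In another set, with 200 further genes changed between passages, edgeR with the block recovered 145 (72.5%) among 19841. The fit without the block was not run on that set, so these rates do not compare the fits. False calls numbered 2 and 0. DESeq2, on the set without passage changes, recovered 171 (85.5%) with 5 false calls. For passage 17 against passage 15, edgeR recovered 199 (99.5%) with 4 false calls on the set with passage changes. DESeq2 1.42.0, other filters, scalings and adjustments, and leaving out each library were alternatives.

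Genes named are the 12 largest mean falls, the 5 largest differences between constructs, the 3 largest between passages, the 5 highest levels per kilobase and the 5 nearest each side of the limit on the falls. Symbols were asked for in this rule but no member had one, so positions are given. Gene lists for pathways were prepared, but 95 of 587 of their genes had a symbol and none was a member, so no list is reported. Members and lists were chosen with earlier results of these data known. No promoter or protein sequences were used here.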

Additional observations from a re-analysis of the deposited data

Results flagged for a closer look

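The effects of the constructs differed at 11 members (10.6%), near the 8.49% of genes past the level limit, by edgeR's test of Nfat5-2-siRNA against Nfat5-1-siRNA with passage in the model. The log2 fold changes were −1.06 at chr21:41340414-41357869, 1.01 at chr2:84141911-84150803, −0.98 at chr22:15572575-16079207, −0.89 at chr17:57665823-57698883, −0.75 at chr20:8236123-8295469, −0.73 at chr10:35494461-35504313, 0.73 at chr13:59961184-59971665, −0.62 at chr26:15719698-15884090, 0.58 at chr20:52942076-52949053, −0.55 at chr9:42778081-42782604 and −0.51 at chr24:23928670-23972633. Each had the same direction in both passages. Without passage in the model, the adjusted p-value from edgeR was 0.0997 at chr22:15572575-16079207, 0.749 at chr20:8236123-8295469 and 0.888 at chr26:15719698-15884090, and 1 at the others. The genes at chr21:41340414-41357869 and chr24:23928670-23972633 also differed between passages, by −0.75 and −0.38.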

How the results depend on the processing

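The number of members was 56 with osmotic limits of 0.2 and 51 with a limit of 1 on the falls, both subsets of the 104. With 1 library left out it ranged from 98 to 146, and between 72 and 97 of these were among the 104, the fewest without replicate 2 of Neg-siRNA (500 mOsm). With TMM-scaled counts it was 112, and with a level limit of 100 it was 136.

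Members called between the constructs numbered 0 in the fit reported first, 3 with no filter on low counts, 1 with DESeq2, 1 with the Benjamini-Hochberg adjustment and 11 with the replicate block. The shares of genes past the level limit called in these fits were 0.0804%, 2.69%, 1.66%, 1.63% and 8.49%. When 1 library was left out, the members called lower numbered 7 to 84 for Nfat5-1-siRNA and 52 to 92 for Nfat5-2-siRNA, against 0.904% to 7.93% and 5.30% to 12% of genes past the level limit. The lone library of a group was then assumed to vary like the other groups. Between passages the count was 2 with edgeR's filterByExpr, 18 with the Benjamini-Hochberg adjustment and 8 to 12 with 1 library left out, against 0.945%, 13.7% and 2.80% to 6.12% of genes past the level limit. The cause of these shifts was not tested. The replicate block also took the falls to 104 members with each construct, and it left the osmotic count at 0.

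Among the named members, 0 of the log2 fold changes tried under another setting reversed a called direction. Outside the fits that leave out a library, 34 of 572 values passed the threshold where the reported one had not, and 9 no longer did. With a library left out, 56 of 920 no longer passed it, 7 newly passed it, and 82 that passed it in neither fit moved by more than their standard error. The lowest member had a mean of 10.3 CPM in Neg-siRNA (500 mOsm), and the lowest value of a named member with a construct was 1.87 CPM, where counting error is largest. Each group had 2 libraries, which limits the precision of all calls.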
